A study of Mus musculus with 37 samples.

Results

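Aurora kinases, Polo-like kinase 1 and the chromosomal passenger complex attach chromosomes to the spindle and correct wrong attachments during the meiotic divisions of the oocyte. Their genes were taken by symbol: the kinases Aurka, Aurkb and Aurkc, the passenger subunits Incenp, Birc5 and Cdca8, the kinase Plk1, and the activators Tpx2 and Bora. These are 9 of the 54752 gene features measured in the series, with 42 of its 138835 transcripts.

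The study sequenced RNA of individual mouse oocytes taken before meiotic resumption, with a germinal vesicle (GV), or at the first (MI) or second (MII) metaphase. It asks how transcripts, and above all those that differ in the 3′ untranslated region (UTR), change while the oocyte matures. The authors deposited counts for 37 oocytes.

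The oocytes came from C57BL/6 females 6 to 8 weeks old that were given 5 IU of pregnant mare serum gonadotropin. GV oocytes were taken from the ovary 48 h later. MII oocytes were ovulated ones, collected 15 h after 5 IU of human chorionic gonadotropin, and MI oocytes were GV oocytes stripped of cumulus cells and cultured for 8 h in M16 medium. The zona and the polar body were removed before Smart-seq2 amplification. Batch A held 6 GV and 6 MII oocytes, and batch B held 10 GV and 15 MI oocytes. MI and MII oocytes were never in the same batch, and the first were cultured while the second were ovulated, so stage, batch and culture cannot be told apart when MI is set against MII. Each stage was therefore compared with the GV oocytes of its own batch. The labels do not say which animal an oocyte came from, so the p-values measure only the spread between these oocytes.

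In mouse oocytes Aurora A, encoded by Aurka, gathers at the spindle poles, while Aurora B and Aurora C act with Incenp, survivin (Birc5) and borealin (Cdca8) on chromosomes and kinetochores. Transcription is silent from the late GV stage on, so that levels of RNA during maturation follow from stability, and translation of many stored transcripts is set by the length of their poly(A) tails. Smart-seq2 primes on the poly(A) tail, so a change of tail length can alter the reads of a transcript whose amount stays the same.

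The libraries were checked for cell type by markers. All 11 oocyte markers had counts in all 37 oocytes, with a summed median of 15081 CPM (counts scaled to a common library size) in GV and 8015 in MII oocytes of batch A, and 4693 in GV and 4049 in MI oocytes of batch B. The 17 cumulus and granulosa cell markers summed to medians of 56.4, 36.7, 41.5 and 39.4 CPM in the same order, most of it from Cyp19a1 and Nr5a2. Of the 6 such markers tested in batch B, 2 were called lower at MI, Gja1 (log2 fold change −3.42, adjusted p = 0.0174) and Ccnd2 (−3.69, adjusted p = 0.0174), but neither with HTSeq counts, and 3 of the 6 had positive values, Nr5a2 and Has2 among them. In batch A none of 3 tested was called, but with HTSeq counts 1 of 6, Cyp11a1, was lower at MII (−2.91, adjusted p = 0.0136). Ccnd2 averaged 3.56 CPM in GV and 0.262 in MI oocytes of batch B. In batch A it averaged 3.90 CPM in GV and 0.0609 in MII oocytes, so GV libraries of either batch held more of this marker. In MII oocyte 1 29816 genes were detected, against 22598 in the next MII oocyte, with blood and immune markers at 14.6 CPM against 0.572. MI oocyte 15 had the lowest depth, with 2709280 expected counts, and MI oocytes 4, 8 and 9 had median ratios of HTSeq to RSEM counts of 1.13, 1.11 and 1.07, where the ratio was near 2 in the others. All were kept, and alternatives without them were run.

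Depth ran from 7509875 to 12648629 expected counts in GV and from 9930485 to 13988444 in MII oocytes of batch A. In batch B it ran from 7184205 to 17724506 in GV oocytes and up to 19390128 in MI oocytes. The ribosomal RNA gene CT010467.1 held 7.24% to 41.5% of the counts of an oocyte. Spike-in RNA held 0.591% to 1.47% of the counts in batch A GV oocytes and 0.979% to 1.40% in MII oocytes, and at most 32 counts in any oocyte of batch B, so spike-in scaling was used in batch A alone.

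All 9 genes are protein coding. On the mm10 assembly (GRCm38) Aurka (ENSMUSG00000027496) lies at chr2:172356190-172370535 on the minus strand and Aurkb (ENSMUSG00000020897) at chr11:69045647-69051664 on the plus strand. Aurkc (ENSMUSG00000070837) lies at chr7:6995300-7003091 on the plus strand, Incenp (ENSMUSG00000024660) at chr19:9872296-9899551 on the minus strand and Birc5 (ENSMUSG00000017716) at chr11:117849251-117855743 on the plus strand. Cdca8 (ENSMUSG00000028873) lies at chr4:124918465-124939311 on the minus strand and Plk1 (ENSMUSG00000030867) at chr7:122159439-122169873 on the plus strand. Tpx2 (ENSMUSG00000027469) lies at chr2:152847964-152895321 and Bora (ENSMUSG00000022070) at chr14:99046222-99074540, the pair on the plus strand.

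The counts of some members rest on sequence shared with other genes. Of the 1105 stretches of 50 bases in the transcript Aurkc-201, 820 (74.2%) also occur in annotated transcripts of 10 other genes, among them the processed pseudogene Gm12463, so reads from these stretches can be assigned to either gene and the level of Aurkc is uncertain. These 10 genes held 9.34% of the combined expected counts in GV and 7.85% in MII oocytes of batch A, and 7.33% in GV and 10.8% in MI oocytes of batch B. In batch A most of their counts were in Gm7789 (means of 141 in GV and 160 in MII oocytes), which shares 6.06% of the stretches. Gm12463, which shares 61.3%, averaged 1.59 and 8.13 expected counts there. Plk1 shared 10.9% of its stretches with Plk-ps1 and Gm44985, Birc5 shared 2.34% and Tpx2 0.146%, and the other members shared none. Cdca8 overlaps 9930104L06Rik on the opposite strand over 232 exon bases (4.48%), and that gene averaged 4.05 CPM against 140 for Cdca8. Plk1 overlaps Gm44985 on the opposite strand over 156 exon bases (7.09%), and Gm44985 averaged 0.075 CPM against 150.

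All 9 members passed the filter on low counts in both batches. Between GV and MII none of the 9 was called by edgeR (Benjamini-Hochberg adjusted p under 0.05 and fold change over 2) and none by DESeq2, whereas 1095 of the 12929 genes tested (8.47%) were called, 278 higher and 817 lower at MII (101 and 676 with HTSeq counts). Between GV and MI none of the 9 was called by edgeR or by DESeq2, where edgeR called 15 of 12419 genes (0.121%) and DESeq2 121. At unadjusted p under 0.05 were 1 member and 4441 of all genes at MII, and 2 members and 1371 of all genes at MI. By adjusted p alone 1 member differed between GV and MII and none between GV and MI, where the share of all genes was 20.6% and 0.145%. At the transcript level edgeR called 0 of 22 tested member transcripts at MII and 0 of 25 at MI, against 5.57% and 0% of all transcripts tested. In the test of whether the change to MII differed from the change to MI, 1 member passed an adjusted p under 0.05, against 5.46% of all genes. On spike-in scaling 29.3% of all genes were called lower at MII and 42.2% were lower by adjusted p alone, against 0 and 2 of the 9 members. Transcript usage was called for 2.39% of genes in batch A and 0.0723% in batch B, and annotated UTR length for 4.55% in batch A and 0% in batch B, with no member in any of these. UTR length could be tested for 5 members, and the annotated lengths of Aurka and Aurkc hardly differ.

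**Figure D1:**
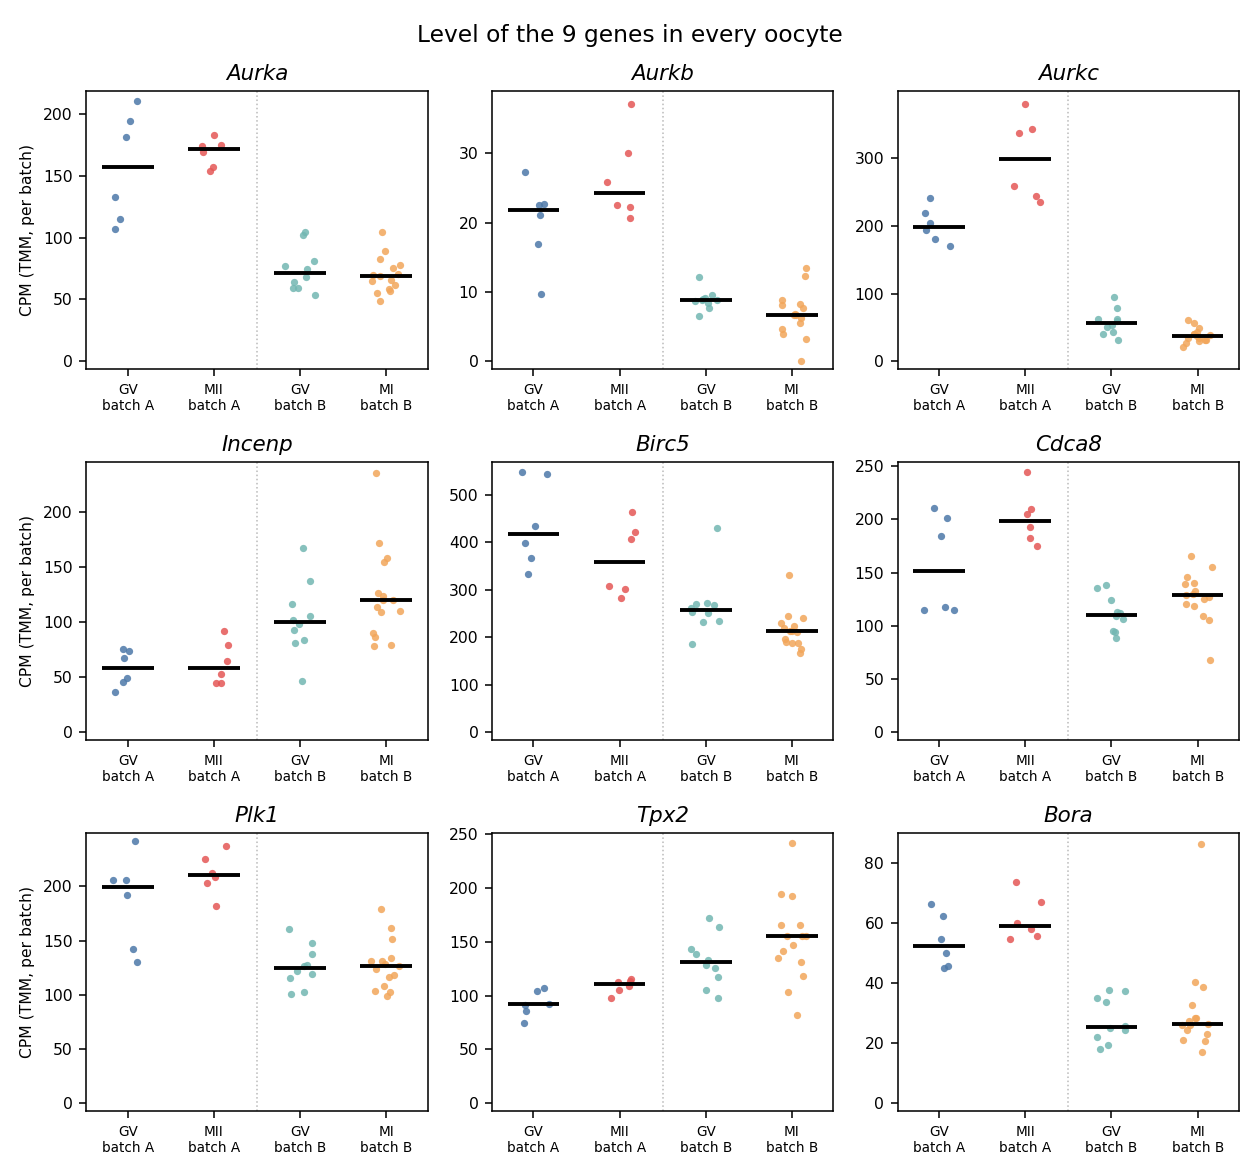
CPM of the 9 genes in each of the 37 oocytes, by stage and batch. Black lines are medians.

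**Figure D2:**
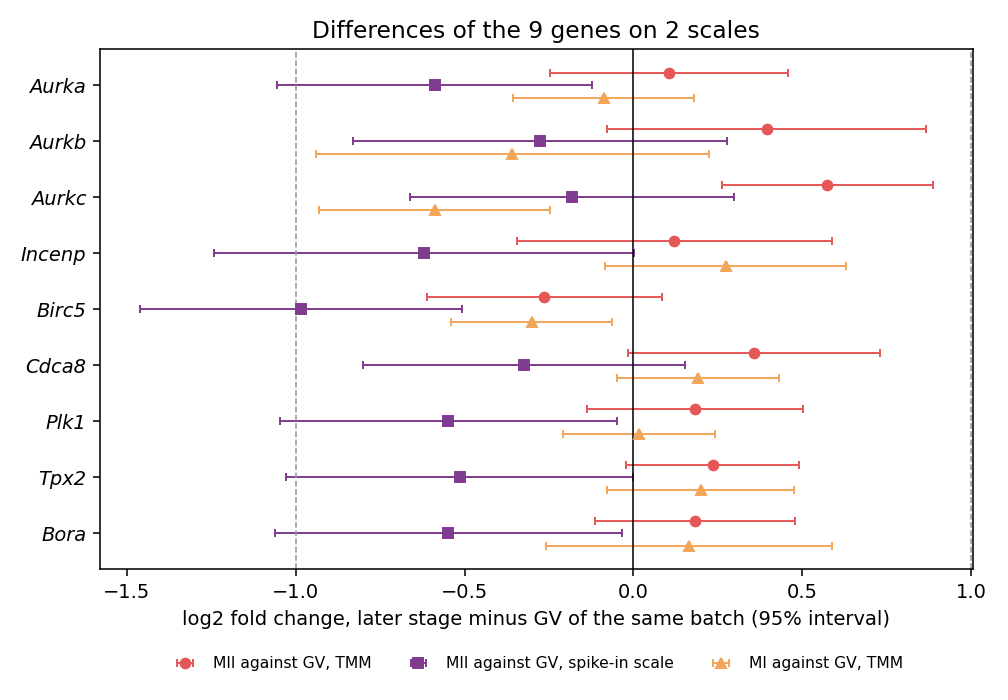
Log2 fold change with 95% interval of the 9 genes, for MII against GV in batch A on TMM and on spike-in scaling, and for MI against GV in batch B on TMM scaling. Dashed lines mark a fold change of 2.

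Aurka, the kinase of spindle poles and of centrosome-like organizing centers, had 107 to 210 CPM in the GV oocytes of batch A (median 157) and 154 to 183 in MII oocytes (median 172). Its log2 fold change to MII was 0.10 (standard error 0.17, adjusted p = 0.697). In batch B it had 53.3 to 105 CPM in GV (median 71.2) and 49.1 to 105 in MI oocytes (median 69.2), for a log2 ratio of −0.09 (standard error 0.13, adjusted p = 0.875). No MII oocyte lay outside the range of the GV oocytes, and the spread of Aurka was smaller at MII, where the coefficient of variation was 6.68%.

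Aurkb, the catalytic subunit of the passenger complex in somatic cells, was the member of lowest level. It had 9.77 to 27.3 CPM in the GV oocytes of batch A (median 21.9) and 20.7 to 37.1 in MII oocytes (median 24.2), and the log2 ratio was 0.39 (standard error 0.22, adjusted p = 0.227). In batch B the range was 6.58 to 12.1 CPM in GV (median 8.85) and 0 to 13.4 in MI oocytes (median 6.71), and the log2 ratio was −0.36 (standard error 0.29, adjusted p = 0.694). The value of 0 came from MI oocyte 15, whose depth leaves room for 3 counts, or 1.11 CPM before TMM scaling, at 95% confidence. The groups overlapped in both batches.

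Aurkc, the germ cell kinase that takes over passenger functions in oocytes, had the smallest adjusted p of the members in both batches. In batch A it had 170 to 241 CPM in GV (median 199) and 235 to 380 in MII oocytes (median 298), and 5 of the 6 MII oocytes lay above all GV oocytes. The log2 fold change was 0.57 (standard error 0.15, adjusted p = 0.0126), which passed the adjusted p, but the fold of 1.49 (95% interval 1.20 to 1.85) lay below the threshold of 2. With each of the 12 oocytes left out in turn the adjusted p stayed under 0.05. The adjusted p was 0.0539 when all 37 oocytes were modelled with batch, where the log2 fold change was not smaller than 0.57. In batch B Aurkc had 31.9 to 95.5 CPM in GV (median 56.5) and 20.8 to 61.4 in MI oocytes (median 36.8), and 13 of the 15 MI oocytes lay below the GV median. The log2 fold change was −0.59 (standard error 0.17, p = 0.00136, adjusted p = 0.146), a fold of 0.665 (95% interval 0.525 to 0.843), which did not pass the threshold over all genes. With all 37 oocytes modelled with batch it passed the adjusted p, at −0.60 (adjusted p = 0.0398), the only 1 of 11 alternatives to do so, and with HTSeq counts the adjusted p was 0.411.

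The difference between these changes was tested in its own model. The log2 change of Aurkc to MII exceeded that to MI by 1.24 (standard error 0.26, adjusted p = 0.00268), a fold of 2.36 (95% interval 1.64 to 3.39). This passed an adjusted p under 0.05 in every alternative tried, with values from 1.13 to 1.31. All of these alternatives scaled by the library, as batch B held too few spike-ins, so the difference concerns shares of the library. In batch A alone the log2 change of Aurkc to MII was −0.18 on spike-in scaling. Summing the counts of Aurkc with those of the 10 genes that share its sequence, an alternative chosen after seeing the data, gave 0.55 at MII (adjusted p = 0.0173), −0.55 at MI (adjusted p = 0.158) and a difference of 1.18 (adjusted p = 0.00437). Aurkb had the next largest difference, 0.82, with an adjusted p of 0.303. In the same test 1 of 2 blood and immune markers was higher and 3 of 11 oocyte markers were lower by adjusted p. Whether stage, batch or culture underlies the difference of Aurkc was not tested, as MI and MII oocytes differ in all of these.

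Incenp, the scaffold that binds and activates Aurora B and C, had 36.1 to 75.6 CPM in GV (median 58.2) and 44.5 to 92.3 in MII oocytes (median 58.7) of batch A. The log2 fold change was 0.12 (standard error 0.22, adjusted p = 0.737). Batch B had 46.9 to 167 CPM in GV (median 100) and 77.8 to 235 in MI oocytes (median 120), and the log2 ratio was 0.27 (standard error 0.17, adjusted p = 0.607). The sign at MII rested on single oocytes, since it turned to −0.02 without MII oocyte 5.

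Birc5, which encodes survivin and recruits the complex to phosphorylated histone H3, was the member of highest level in every group. It had 333 to 549 CPM in GV (median 417) and 284 to 463 in MII oocytes (median 358) of batch A, with 3 of the 6 MII oocytes below all GV oocytes. Birc5 was the only member with a negative value at MII (log2 fold change −0.26, standard error 0.17, adjusted p = 0.276), and with HTSeq counts it was near 0 (−0.02, adjusted p = 0.945). In batch B it had 186 to 429 CPM in GV (median 257) and 168 to 331 in MI oocytes (median 212), and 14 of the 15 MI oocytes lay below the GV median. The log2 fold change to MI was −0.30 (standard error 0.12, p = 0.0149, adjusted p = 0.295). GV oocyte 10 of this batch held the highest value, 429 CPM with 273 in the next, and no alternative left it out.

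Cdca8, which encodes borealin and joins survivin to Incenp, had 115 to 210 CPM in GV (median 151) and 175 to 245 in MII oocytes (median 199) of batch A. All 6 MII oocytes lay above the GV median, but only 1 above all GV oocytes, and the log2 fold change of 0.36 had an adjusted p of 0.163 (standard error 0.18). In batch B it had 88.2 to 138 CPM in GV (median 110) and 67.8 to 166 in MI oocytes (median 129), and the log2 ratio was 0.19 (standard error 0.12, adjusted p = 0.587). None of the 3 passenger subunits passed the adjusted p in either batch.

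Plk1, the kinase needed for spindle assembly and for the exit from meiosis I, had the smallest change of all members between GV and MI. It had 131 to 242 CPM in GV (median 199) and 182 to 237 in MII oocytes (median 210) of batch A, and the log2 ratio was 0.18 (standard error 0.15, adjusted p = 0.423). Batch B gave 101 to 161 CPM in GV (median 124) and 98.6 to 179 in MI oocytes (median 126), and the log2 ratio was 0.02 (standard error 0.11, adjusted p = 0.977). No MII oocyte lay outside the range of the GV oocytes.

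Tpx2, which binds Aurora A on spindle microtubules and holds it in the active form, had 74.3 to 107 CPM in GV (median 91.9) and 97.9 to 115 in MII oocytes (median 111) of batch A. The 6 MII values were the closest together of any member, with a coefficient of variation of 5.86%, and 4 of them lay above all GV oocytes. The log2 fold change was 0.23 (standard error 0.12, adjusted p = 0.183). In batch B Tpx2 had 97.8 to 172 CPM in GV (median 131) and 81.7 to 242 in MI oocytes (median 155), and the log2 ratio was 0.20 (standard error 0.14, adjusted p = 0.640).

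Bora, through which Aurora A activates Plk1, had 44.9 to 66.4 CPM in GV (median 52.4) and 54.5 to 73.5 in MII oocytes (median 58.8) of batch A. All 6 MII oocytes lay above the GV median, and the log2 fold change was 0.18 (standard error 0.14, adjusted p = 0.382). In batch B it had 18.1 to 37.8 CPM in GV (median 25.2) and 16.9 to 86.2 in MI oocytes (median 26.5), and the log2 ratio was 0.17 (standard error 0.21, adjusted p = 0.843). Of all members Bora had the widest spread in the MI oocytes, with a coefficient of variation of 53.0%, as MI oocyte 10 held the highest value. For every member the groups of a batch overlapped, which is not set here against the share of all genes that do so.

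The share of a gene in the library and its amount per oocyte can differ when the total changes, so batch A was also scaled by spike-ins. On this scale the median log2 fold change of all genes to MII was −0.72, and member values are read relative to it. The 8 positive values of members on TMM scaling were thereby negative, as the scale lowers all genes alike. Birc5 was at −0.98 (adjusted p = 0.00183) and Aurka at −0.59 (adjusted p = 0.0392), where on TMM scaling they had −0.26 and 0.10. Aurka did not pass on this scale with HTSeq counts (adjusted p = 0.0791) or without MII oocyte 1 (adjusted p = 0.0775), whereas Birc5 did. Aurkc, at 0.57 on TMM scaling, turned to −0.18 (adjusted p = 0.511), above the median of all genes. The others were Aurkb at −0.28 (adjusted p = 0.388), Incenp at −0.62 (adjusted p = 0.0942), Cdca8 at −0.32 (adjusted p = 0.245), Plk1 at −0.55 (adjusted p = 0.0688), Tpx2 at −0.51 (adjusted p = 0.0926) and Bora at −0.55 (adjusted p = 0.0752). None reached a fold of 2.

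Counts per spike-in count give the same comparison for single genes. At MII Birc5 was at 50.5% of its GV mean (exact permutation test, two-sided, p = 0.00433), and 5 of the 6 MII oocytes lay below all GV oocytes. Aurka was at 66.5% (p = 0.0173) and Bora at 68.4% (p = 0.0433). These 3 stayed under p = 0.05 when HTSeq counts were used or MII oocyte 1 was dropped, but the p-values are not adjusted, 6875 of 12929 genes were at unadjusted p under 0.05 in the edgeR test on this scale, and Bora did not pass the adjusted p there. The other 6 were Aurkc at 88.1% (p = 0.463), Aurkb at 82.6% (p = 0.294), Cdca8 at 79.9% (p = 0.154), Tpx2 at 69.9% (p = 0.0606), Plk1 at 68.4% (p = 0.0628) and Incenp at 64.9% (p = 0.126). All genes other than CT010467.1 together were at 66.1% (p = 0.013). Aurka was thus close to this total, and no member was tested against it.

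Levels per length were estimated as TPM, with counts divided by transcript length, to order the members within a library. Birc5 was at rank 1 in every group, with mean TPM of 908 and 643 in GV and MII oocytes of batch A and 523 and 427 in GV and MI oocytes of batch B, and Aurkb was last with 20.97, 23.8, 9.07 and 6.81. Aurkc was at rank 2 in batch A, with 344 and 428, but at rank 4 in GV oocytes of batch B (94.5) and at rank 7 at MI (64.4). The GV oocytes of the batches thus placed Aurkc differently, and with its shared sequence its rank is uncertain. Over the GV oocytes of batch A the ranges of Cdca8 (mean 190 TPM), Plk1 (168) and Aurka (165) overlapped. Those of Tpx2 (47.9), Bora (41.5) and Incenp (35.2) did so as well. The order of these genes within each oocyte was not tested. In batch B Cdca8 (152) and Plk1 (140) of the GV oocytes were again neighbors with overlapping ranges, with Aurka at 76.8.

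**Figure D3:**
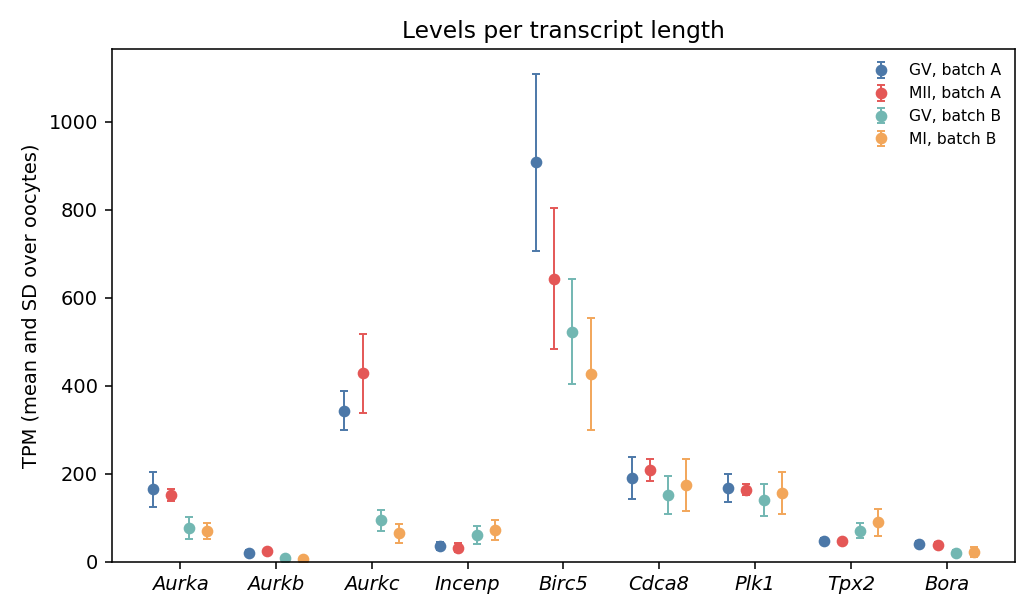
Mean and standard deviation of the TPM of the 9 genes in each stage and batch.

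The ratio of Aurkc to Aurkb per length was above 1 in all 36 oocytes with counts of Aurkb. Its median was 15.2 in GV and 20.1 in MII oocytes of batch A, and 9.93 in GV and 9.43 in MI oocytes of batch B. Aurkc was above Aurka in all 6 GV and all 6 MII oocytes of batch A, and in 7 of 10 GV and 6 of 15 MI oocytes of batch B.

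Of the 42 transcripts of the members in the matrix, 22 were tested in batch A and 25 in batch B. By edgeR none was called, with 4 and 5 at unadjusted p under 0.05, and DESeq2 called 1 in batch A and none in batch B. Over all transcripts of batch A 5438 of 22461 were at unadjusted p under 0.05, and DESeq2 called 1799 where edgeR called 1252. Over all transcripts of batch B edgeR called 0 of 22717, with 1615 at unadjusted p under 0.05 and 103 called by DESeq2. The transcript that DESeq2 called was Bora-204, of the nonsense-mediated decay class (edgeR log2 fold change 1.53, standard error 0.54, adjusted p = 0.0955, DESeq2 adjusted p = 0.0432). Its share of the Bora counts was 27.1% in MII oocyte 1, the oocyte that stood apart, and at most 10.1% in the other 5 MII oocytes, against 2.56% to 6.46% in GV oocytes, and without MII oocyte 1 the edgeR log2 fold change was 0.69 (adjusted p = 0.299). Aurkc-204 was at 0.55 (adjusted p = 0.047) and Aurkc-201 at 0.64 (adjusted p = 0.0506), both under a fold of 2. With 1 oocyte left out at a time the adjusted p of Aurkc-204 was under 0.05 in 3 of 12 fits and reached 0.117.

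Transcript shares described which annotated form held the counts of a member. Incenp has only Incenp-201 in the transcript matrix, so it has no shares. Birc5-201 held 98.8% in GV and 98.6% in MII oocytes of batch A. Aurka-203 held 88.1% and 84.3%, and Bora-201 held 91.6% and 87.7%. Aurkc was split over Aurkc-201 (48.3% and 50.6%), Aurkc-204 (28.7% and 28.8%) and Aurkc-203 (14.2% and 13.8%), with Aurkc-202 at 6.66% and 4.75%. Aurkb-201 held 66.5% and 74.2% in batch A but 50.1% in GV and 39.7% in MI oocytes of batch B, where the rest was mostly Aurkb-202. Single oocytes of batch B ran from 0% to 99.3% in GV and from 0% to 100% at MI. Aurkb averaged only 115 counts in these GV and 89 in these MI oocytes, so the mean shares of Aurkb-201 there are uncertain. Tpx2-202 held 44.2% and 38.7% in batch A and 67.6% and 69.2% in batch B, so that the GV oocytes of the batches differed more than the stages. Plk1-203 held 0.371% in GV oocytes of batch A and 9.53% in those of batch B, and Cdca8-203 held 0.0801% and 9.37%.

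Transcript usage was called in batch A for 131 of 5477 genes and in batch B for 4 of 5535 (edgeR diffSpliceDGE). Of the members 6 were tested in batch A, with none at unadjusted p under 0.05, and 8 in batch B, with Tpx2 alone under 0.05 (p = 0.00676, adjusted p = 1.00). Mean annotated 3′ UTR length, weighted by transcript counts, could be tested for Aurka, Aurkc, Birc5, Cdca8 and Tpx2. Annotated lengths were 603 or 609 bases in Aurka and 146 or 149 in Aurkc, so the mean could hardly move there. In Birc5 and Cdca8 a single form held nearly all counts, Birc5-201 with 98.8% and Cdca8-202 with 99.1% in batch A GV oocytes. A lack of a call in these genes is therefore no evidence of an unchanged UTR. In batch A limma called 235 of 5161 genes, 206 longer and 29 shorter at MII, and none of these 5 members. In batch B it called 0 of 3354 genes, with 184 at unadjusted p under 0.05. Tpx2 averaged 1323 bases in GV and 1350 in MII oocytes (adjusted p = 0.907), and Birc5 461 in GV and 449 in MI oocytes (p = 0.0282, adjusted p = 0.862). The annotation fixes these lengths, so poly(A) sites outside it were not analysed here.

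The last 100 bases of the annotated 3′ UTR of the coding transcript with most counts were searched for the poly(A) signals AATAAA and ATTAAA and for the cytoplasmic polyadenylation elements TTTTAT and TTTTAAT. Such an element was present in 4 of the 9 members, Aurka, Aurkb, Aurkc and Tpx2, where 20.1% of 10512 tested genes had one. All 3 Aurora kinases were among these, and Incenp, Birc5, Cdca8, Plk1 and Bora had none. AATAAA was present in Aurkb, Incenp, Birc5, Cdca8 and Bora (65.8% of all genes) and ATTAAA in Aurkc and Plk1 (22.1%), while Aurka and Tpx2 had neither. Of the members only Aurkb and Aurkc had both an element and a signal, where 17% of all genes had both. For Tpx2 the search covered Tpx2-202, with 44.2% of the Tpx2 counts in batch A GV oocytes. Tpx2-206 and Tpx2-207, with longer UTRs of 1633 bases, held 20.0% and 33.5% there and were not searched. The 4 elements began 65 bases from the transcript end in Aurka, 37 in Aurkb, 44 in Aurkc and 35 in Tpx2. In Aurkb the element was followed at once by the poly(A) signal. A match is a description, not a site or a cause. Capitals mark these motifs in the sequences, which are those of the 4 members with an element and, as the member of highest level and without one, Birc5.
Aurka-203: ttaaaggctattTTTTATgttggagttctg
Aurkb-201: tgaagaacaacaTTTTATAATAAAgtctta
Aurkc-201: gcttgttttctcTTTTATgaagtgatgtta
Tpx2-202: gagatttcttgaTTTTATatatttggtttt
Birc5-201: acggggtaacggAATAAAatcacttgaaaa

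Genes that act with the members were counted by list in the comparison of GV and MII. Of 62 tested genes in 7 lists 1 was called (1.61%, against 8.47% of all genes) and 21 passed the adjusted p alone (33.9%, against 20.6%), 15 higher and 6 lower, and no list was tested as a set. Among 7 tested cofactors of Aurora A none was called by edgeR, with Tacc3 (log2 fold change −0.62, adjusted p = 0.00470), Nedd1 (0.51, adjusted p = 0.00707) and Cep192 (0.49, adjusted p = 0.0383) passing the adjusted p alone. Among 7 genes of the Ran system that frees Tpx2 from importins none was called, with Kpna2 at −0.66 (adjusted p = 0.00805), Ranbp1 at −0.38 (adjusted p = 0.0596) and Ran at −0.65 (adjusted p = 0.181). Among 12 genes that recruit the passenger complex or act with it at the central spindle none was called and 5 passed the adjusted p alone, 4 higher and 1 lower, with Bub1 at −0.65 (adjusted p = 0.00247), Kif23 at 0.58 (adjusted p = 0.00387) and Sgo2a at 0.60 (adjusted p = 0.00952). Bub1, whose kinase marks histone H2A for the complex, was thus lower in share while Sgo2a, which binds at that mark, was higher.

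Of 6 tested kinetochore substrates of Aurora B and C none was called, with Dsn1 at 0.59 (adjusted p = 0.00516), Cenpe at 0.58 (adjusted p = 0.0105) and Kif2c at −0.17 (adjusted p = 0.408). Dsn1 (0.71, adjusted p = 0.0145) and Cenpe (0.71, adjusted p = 0.0444) also passed the test of the change to MII against the change to MI, the only 2 of 63 tested list genes (3.17%, against 5.46% of all genes). Of 14 Polo kinases and partners of Plk1 only Wee1, an inhibitory kinase of Cdk1 that Plk1 marks for removal, was called, lower at MII (−1.19, standard error 0.30, adjusted p = 0.0121). Without GV oocyte 5 it was at −0.83 (adjusted p = 0.0316), under a fold of 2. Its adjusted p was 0.0841 when all 37 oocytes were modelled with batch, at a value still over a fold of 2. By adjusted p alone 4 of the 14 were higher and 2 lower, among them Bub1b (0.67, adjusted p = 0.00399) and Plk4 (0.46, adjusted p = 0.0100). Of all genes 8.47% were called and 20.6% passed the adjusted p alone.

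Of 8 phosphatase genes that oppose these kinases none was called, with Ppp1cb at 0.76 (adjusted p = 0.00470), Ppp1r12a at 0.49 (adjusted p = 0.0188) and Ppp6r3 at 0.26 (adjusted p = 0.338). Of 8 genes for ubiquitin-dependent removal of the members none was called, with Fzr1 at −0.64 (adjusted p = 0.0238), Cdc20 at 0.54 (adjusted p = 0.0491) and Klhl9 at 0.29 (adjusted p = 0.176). In batch B no gene of these lists was called or passed the adjusted p alone. On spike-in scaling the genes named here with positive values turned negative except Ppp1cb, which was at 0.04, and 10 of the 62 genes were called lower (16.1%, against 29.3% of all genes), among them Bub1, Tacc3, Kpna2, Ran, Ranbp1, Fzr1 and Wee1. By adjusted p alone none of the 62 was higher on this scale and 21 were lower (33.9%, against 42.2%).

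Likeness to the members was described by correlation over the 37 oocytes among 6703 genes, after the log2 values of each gene were centered on their mean in each batch, so that stage still counts in it. Incenp had the closest match of any member, with Hsp90ab1 (r = 0.866), Baz1b (0.864) and Chaf1a (0.862). Aurkc was closest to Dpy30 (0.826), Prdx1 (0.809) and Asf1b (0.769), and Aurka to Adrm1 (0.817), Mrto4 (0.764) and Rsl1d1 (0.761). Birc5 was closest to Eif3g (0.813), Pomp (0.787) and Tdrd12 (0.777), Tpx2 to Casp8ap2 (0.812), Mtus1 (0.792) and Slf2 (0.777), and Aurkb to Idi1 (0.787), Slc25a32 (0.769) and Clk2 (0.754). Plk1 was closest to Ube4b (0.724), Cdca8 to Nsmce3 (0.720) and Bora to Gm839 (0.704). No member was among the 3 closest genes of another. Among the 36 pairs of members 32 correlations were positive, from −0.323 to 0.592 with a median of 0.248, so every pair of members lay below the third closest gene of each member, of which Fbxo30 for Cdca8 was the lowest (0.680).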

How the data were processed

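What the authors deposited is a count per gene from HTSeq and an expected count per gene and per transcript from RSEM, for 37 oocytes that were not pooled, with neither normalization nor logarithm. Per the submitters' processing notes reads were trimmed with Trim Galore 0.6.4, aligned with STAR 2.7.6a to mm10 and counted with HTSeq 0.12.4, and expected counts came from RSEM 1.3.1. Strandedness, overlap mode and the treatment of reads with several alignments are not stated. The count matrices were built on GENCODE VM20, and names, positions and UTRs were taken from GENCODE M21, where 54723 gene and 138789 transcript identifiers were matched without version number.

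The software was edgeR 4.0.16, DESeq2 1.42.0 and limma 3.58.1 under R 4.3.3, and Python 3.11.15 with pandas 2.3.3 and matplotlib 3.10.9. Expected counts were rounded, and library sizes and tests did not include the 92 spike-ins. After filterByExpr and TMM normalization, edgeR's quasi-likelihood test was run on GV against MII in batch A and GV against MI in batch B. All adjusted p-values are by Benjamini-Hochberg over all features tested, and a call needed more than a fold of 2 and an adjusted p under 0.05. The change to MII minus the change to MI was tested by a contrast of 4 group means, by adjusted p alone. Transcript usage was tested with diffSpliceDGE, annotated UTR length with limma over genes with at least 10 coding counts in every oocyte, and counts per spike-in count by exact permutation over all 924 assignments, two-sided. CPM and TPM used expected counts, and TPM the annotated length. CPM of members were scaled by TMM within a batch, so levels are not compared between batches, and CPM of markers and of overlapping genes used plain totals. Shared sequence was counted as stretches of 50 bases on both strands. Correlations are descriptions over genes that averaged 10 CPM or more.

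Alternatives were DESeq2, RLE size factors, no filter, HTSeq counts, no fold threshold, a model of both batches, the replicate number as a block, spike-in size factors, each oocyte of batch A left out, and MI oocytes 15 or 4, 8 and 9 left out. Chosen after seeing the data were the test of the difference on HTSeq counts or without MII oocyte 1, without MI oocyte 15 or without MI oocytes 4, 8 and 9, spike-in scaling without MII oocyte 1, and Aurkc summed with genes of similar sequence.

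The 9 members and the gene lists were chosen with earlier results of these data known. Besides members, named genes of a list are those called between GV and MII and, below 3 calls, those of smallest adjusted p up to 3, and for likeness up to 3 closest genes per member. Intervals of fold changes come from the quasi-likelihood fit, and the bound for a count of 0 covers counting error only.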

Additional observations from a re-analysis of the deposited data

Results flagged for a closer look

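Values per oocyte were searched for those far from the rest of their group, by the gap to the nearest value. By chance alone the rule picks about 1 in 20 groups, and 65 groups were looked at, of which 8 gave a value. The rule was not applied to the MI oocytes, so the search is no check of that group. Outside the rule, Bora was at 86.2 CPM in MI oocyte 10, with 40.3 in the next, and depth was 2709280 in MI oocyte 15, with 10051024 in the next. The rule itself gave the following 8 values. Blood and immune markers summed to 0.579 CPM in GV oocyte 4 of batch A, with 0.158 in the next oocyte. The same markers summed to 14.6 CPM in MII oocyte 1, with 0.572 in the next, and this oocyte also had 29816 genes detected against 22598. Birc5 was at 39.3 counts per 1000 spike-in counts in MII oocyte 2, where the next was 27.6 and the lowest 23.2. Cumulus and granulosa markers summed to 51.1 CPM in the same oocyte, with 38.6 in the next. In batch B Aurkb was at 12.1 CPM in GV oocyte 5, with 9.51 in the next, and Birc5 at 429 CPM in GV oocyte 10, with 273 in the next. HTSeq counts were at a median of 2.2 times the RSEM counts in GV oocyte 4 of batch B, with 2.12 in the next.

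Aurkc was the 1 member whose change to MII differed from its change to MI on TMM scaling, by a log2 value of 1.24.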

How the results depend on the processing

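Of GV against MII, 1095 genes were called. The number was 1859 without a filter, 2662 with no fold threshold, 777 with HTSeq counts (101 higher and 676 lower), 653 in the model of both batches, 3919 with spike-in size factors, 3667 with HTSeq counts and spike-ins, and 3816 with spike-ins and MII oocyte 1 left out, the last chosen after seeing the data. The count of members called was 1, not 0, with no fold threshold (Aurkc). Leaving out 1 oocyte at a time gave from 842 to 1246.

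Spike-in scaling lowers the values of all genes alike, with a median of −0.72, so the reversed signs of members on it follow from the scale. With RSEM counts Aurka was at −0.59, Aurkb −0.28, Aurkc −0.18, Incenp −0.62, Cdca8 −0.32, Plk1 −0.55, Tpx2 −0.51 and Bora −0.55. With HTSeq counts Aurka was at −0.50, Aurkb −0.24, Aurkc −0.16, Incenp −0.62, Cdca8 −0.28, Plk1 −0.48, Tpx2 −0.52 and Bora −0.58. Without MII oocyte 1 Aurka was at −0.57, Aurkb −0.22, Aurkc −0.15, Incenp −0.62, Cdca8 −0.31, Plk1 −0.55, Tpx2 −0.51 and Bora −0.61. With 1 oocyte left out at a time Incenp ran from −0.016 (without MII oocyte 5) to 0.21 (without GV oocyte 3). The cause was not tested. Aurka passed the adjusted p with RSEM counts (0.0392), but not with HTSeq counts (0.0791) or without MII oocyte 1 (0.0775). Birc5 passed the adjusted p on these scales, at −0.98, −0.77 and −0.94. These lower values also follow from the scale, with medians of all genes of −0.72 with RSEM and −0.73 with HTSeq counts. On TMM scaling Birc5 was at −0.26 with RSEM and at −0.023 with HTSeq counts. Aurkc did not pass in the model of both batches (adjusted p = 0.0539). Its log2 fold change was 0.57 in batch A alone and 0.63 in that model. Wee1 lost its call in the model of both batches, at −1.12 (adjusted p = 0.0841), and without GV oocyte 5, at −0.83 (adjusted p = 0.0316).

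Of GV against MI, 15 genes were called. The number was 121 with DESeq2, 40 without a filter, 107 in the model of both batches, 36 without MI oocytes 4, 8 and 9, and 0 with HTSeq counts, with or without these oocytes. Aurkc passed the adjusted p in the model of both batches, at −0.60 (adjusted p = 0.0398). In batch B alone it was at −0.59 (adjusted p = 0.146). For the difference of the changes 823 genes passed, against 380 with HTSeq counts without MI oocytes 4, 8 and 9, 319 with all HTSeq counts and 512 without MII oocyte 1, the last 2 chosen after seeing the data. Aurkc passed in all of them. The cause of these shifts was not tested.

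Of transcripts between GV and MII 1252 were called, against 4321 with spike-ins, and from 913 to 1269 with each oocyte left out. DESeq2 called 1 member transcript, Bora-204. Between GV and MI 0 were called, against 103 with DESeq2 and 2 without a filter.

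Oocytes of equal number were also taken as a block, though no source says that they belong together. Genes called numbered 886 between GV and MII and 0 between GV and MI, transcripts 532 and 0, and Aurkc was at 0.56 (adjusted p = 0.0606). Over the 6 pairs of batch A correlations of profiles ran from −0.327 to 0.341, with 1 over 0.1, and over the 10 pairs of batch B from −0.146 to 0.107, with 1 over 0.1. The best partner had the same number for 1 oocyte in batch A and 0 in batch B, so the numbers were read as names alone.

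Values of the 9 members, without Wee1, were sorted by sign and adjusted p threshold, not size. At MII 177 kept both, 25 reversed (nearly all by the spike-in scale), 3 were stronger and 2 weaker. At MI 98 kept both and 1 was stronger, and for the difference 63 kept both.

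Limits are that MI and MII oocytes share neither batch nor handling, that no animal is named, that batch B held too few spike-ins to scale by, and that Aurkc shares most of its sequence with pseudogenes. RNA was read through its poly(A) tail, and tail length, protein and kinase activity were not analysed here. Poly(A) sites outside the annotation and reads themselves were not used here. A p over the threshold does not show that a level stayed the same.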
